A study of Mus musculus with 12 samples.

Results

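The interleukins and their receptors were taken from the gene count table as every protein-coding gene whose symbol starts with Il followed by a digit, which gave 84 gene identifiers of the 55487 in the table. They carry 82 symbols, because Il11ra2 has 3 identifiers, and by role they comprised 37 ligands, 42 receptor genes, 4 antagonists or binding proteins and 1 enzyme, Il4i1. The antisense gene Il1bos is non-coding and was not a member. The counts came from 12 whole lungs of miR-30a-/- mice on the C57BL/6J strain, and all 12 lacked the whole miR-30a gene in every cell through a CRISPR/Cas9 deletion, so no group here carried the wild-type allele. Hyperoxia was 95% FiO2 on postnatal days 1 to 5, controls stayed in room air, and every lung was taken on postnatal day 21, with 3 lungs for each sex under each exposure. The pups had been pooled across litters before they were split between the exposures, the litter of each lung is not stated, and lungs were named by the animal numbers in the labels, which are 2, 5 and 6 for room air females, 2, 4 and 5 for hyperoxia females, 1, 4 and 5 for room air males and 1, 2 and 3 for hyperoxia males.

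Interleukins are secreted messengers with which leukocytes, epithelium and stroma signal to each other, and most act by bringing together receptor chains on the target cell. Receptors of the common gamma chain, common beta chain, IL-6, IL-12 and IL-10 families signal through JAK kinases and STAT factors, whereas the IL-1 and IL-17 families use adaptors that lead to NF-kappaB. In the lung, IL-33 is a nuclear alarmin of alveolar epithelium, IL-1 and IL-18 are released after inflammasome activity, and IL-4, IL-5 and IL-13 belong to type 2 responses. Neonatal hyperoxia is used in mice as a model of the lung injury of preterm infants.

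The 12 libraries held between 8763033 and 16741694 counts (median 11942546), of which the members took 12766 to 28876. A limit of 3 counts corresponded to 0.179 to 0.342 counts per 1000000 (CPM) and covers counting error only. Xist held 8834 to 27296 counts in the 6 lungs labelled female and 148 to 210 in the 6 labelled male, and the Y-linked Ddx3y held 0 in every female lung and 270 to 715 in the male lungs. The lung markers were present in all lungs, since the 4 alveolar type 2 genes Sftpc, Sftpb, Lamp3 and Abca3 summed to 3316 to 8516 CPM and the 4 endothelial genes Pecam1, Cdh5, Kdr and Cldn5 to 833 to 1866 CPM. The miR-30a hairpin gene had 0 counts in all 12 lungs, but so did that of miR-30c-2, which was not deleted, so these counts give no check of the deletion.

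Because every lung lacked miR-30a, its sequence and the places where its seed has a match in the members are shown first. The mature strand miR-30a-5p lies at chr1:23272274-23272295 on the plus strand of GRCm38.p6 and carries the seed GUAAACA at bases 2 to 8, printed here in capitals. Among the mature mouse miRNAs in the RefSeq table used here, which does not hold every miRNA, miR-30c-5p, miR-30e-5p and miR-384-5p have that same seed.
miR-30a-5p: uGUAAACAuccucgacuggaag
miR-30c-5p: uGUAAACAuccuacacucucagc
miR-30e-5p: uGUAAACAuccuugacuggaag
miR-384-5p: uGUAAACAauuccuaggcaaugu

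The seed pairs with the letters TGTTTAC in a transcript, and TGTTTACA is the longer match with an A opposite base 1 of the miRNA. The annotated 3′ UTRs of the members were searched on the transcript strand, and 9 of the 81 members with such a UTR held at least 1 TGTTTAC (11.1%), against 14.4% of 21021 protein-coding genes, whose longest UTR was also longer at the median (961 bases against 737). The longer match stood in 4 members, Il18r1, Il20rb, Il21r and Il1f5, or 4.94%, against 7.12% of all genes. Their sites are printed 5′ to 3′ with the match in capitals, in the order Il18r1 at chr1:40491482-40491503 on the plus strand, Il20rb at chr9:100457833-100457854 on the minus strand, Il21r at chr7:125633189-125633210 on the plus strand and Il1f5 at chr2:24282081-24282102 on the plus strand of GRCm38.
Il18r1 site: agtccgagtgTGTTTACAcaca
Il20rb site: ggaaatgtgcTGTTTACAgaat
Il21r site: tgaattctcaTGTTTACAaact
Il1f5 site: ggatctggagTGTTTACAtcaa

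The shorter match alone stood in Il1a, at 2 places, and in Il12rb2, Il2, Il5ra and Il7. Of these 9 genes, Il1f5, Il2 and Il7 stood near the background described next. The matches are a description of letters, and without wild-type lungs in the comparison no effect of the deletion on these genes was measured.

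Whether a member rose above the background of these libraries was asked first, since many cytokine genes are silent in an unchallenged lung. The background was read from 1490 olfactory and vomeronasal receptor genes, most of which lung cells are not known to use, as their median number of counts per kilobase of exon in each lung. It lay between 0.725 and 1.58 CPM per kb, with a mean of 1.20 ± 0.275 (SD, n = 12). The counts expected from this density, as a percentage of a gene's own counts over the 12 lungs, are called its background share here, and 15 members had a share of 50% or more, 66 had less and the 3 Il11ra2 identifiers had no counts. No level is given for those 3, which share 1 symbol.

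**Figure D1:**
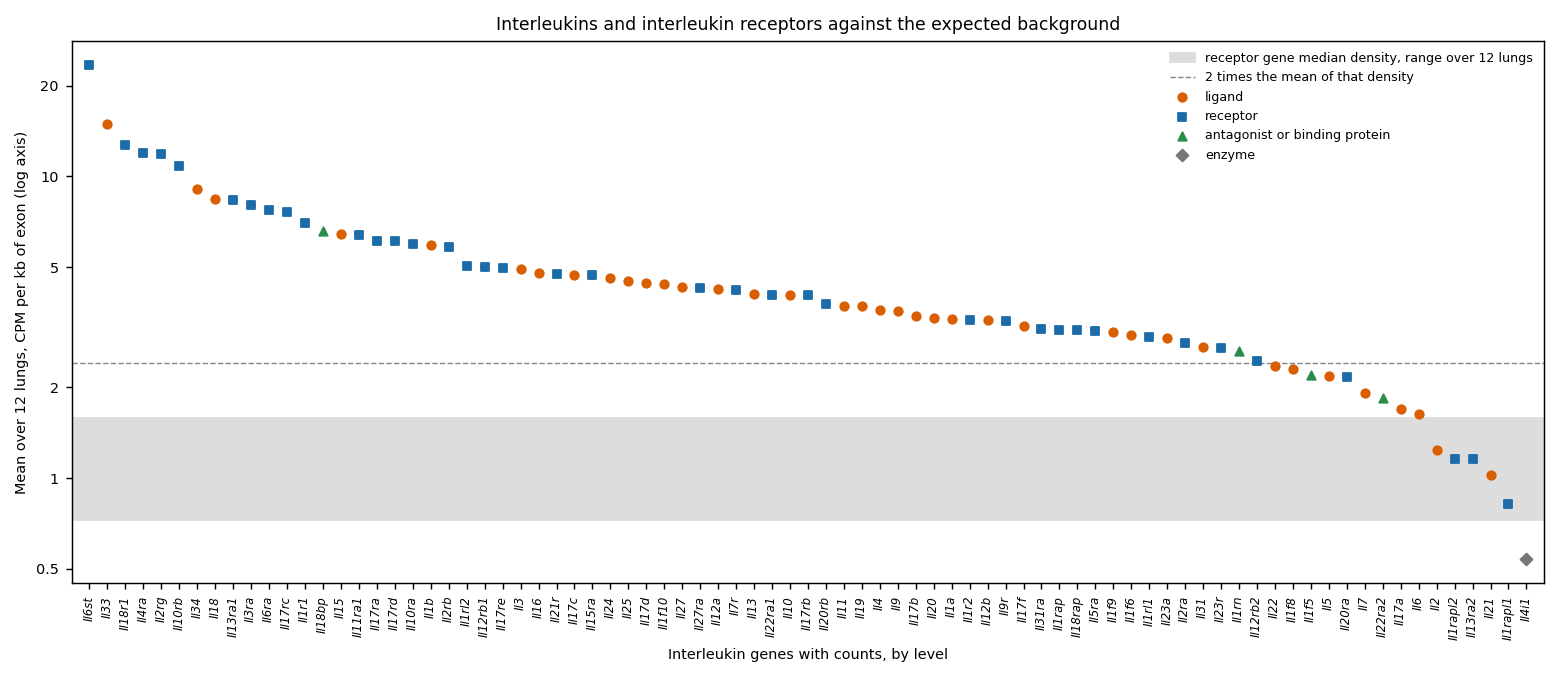
Mean level of the 81 members with counts in CPM per kb of exon on a log axis, ordered from high to low, with the symbol shape and colour giving the role. The grey band spans the receptor gene density of the 12 lungs, 0.725 to 1.58 CPM per kb, and the 15 members under the dashed line, drawn at 2 times the mean density, are those near background.

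Of the 10 highest members 7 were receptor chains and 3 were ligands. Il6st, which encodes gp130, the signalling chain shared by the IL-6 family, lies at chr13:112464070-112510086 and reached 23.3 CPM per kb, with a background share of 4.90%. The next were Il33 at chr19:29925114-29960718 with 14.9 CPM per kb, Il18r1, the ligand-binding chain for IL-18, at chr1:40465552-40500854 with 12.7, Il4ra, the chain that binds IL-4, at chr7:125552120-125579474 with 11.99, and Il2rg, the common gamma chain, at chrX:101264378-101268255 with 11.8. These 5 were the members with a share under 10%. Il2rg shares 30.5% of its exon length with the gene Gm20489, and the sources used here do not state how the counting treated such overlaps or strand.

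The remaining 5 of the 10 highest members were Il10rb, a chain shared by the IL-10, IL-22 and interferon lambda receptors, at 10.9 CPM per kb, Il34, a ligand of the CSF1 receptor, at 9.12, Il18 at 8.39, Il13ra1, the partner of IL-4 receptor alpha in binding IL-13, at 8.32, and Il3ra, the IL-3 binding chain, at 8.02. The 23 members with a share between 10% and 25% were mostly receptors, but also included Il15, which sustains NK cells, with 6.43 CPM per kb, and Il1b, the inflammasome-dependent form of IL-1, with 5.95. A further 38 had a share of 25% to 50%, and among them were the cytokines of T helper cells Il4 (3.62 CPM per kb, share 32.5%), Il13 (4.06, 29.1%) and Il10 (4.04, 29.4%). Their densities still exceeded those of 99.9% of the receptor genes, and the density of Il1rl1, the receptor for IL-33, at 2.94 CPM per kb, exceeded 99.0%.

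The median share was 24.8% over the 39 receptor genes with counts and 32.5% over the 37 ligands. Among the receptors 4 were near background, namely Il20ra, Il1rapl2, Il13ra2 and Il1rapl1, and among the ligands 8 were, namely Il22, Il1f8, Il5, Il7, Il17a, Il6, Il2 and Il21. The other 3 near background were the IL-36 receptor antagonist Il1f5, the soluble IL-22 binding protein Il22ra2 and Il4i1, a secreted amino acid oxidase. Just inside the limit stood Il22 with a share of 50.5% and 2.35 CPM per kb, and just outside it Il12rb2 with 48.0% and 2.45 CPM per kb. Il12rb2 shares 40.0% of its exon length with Serbp1, and Il4i1 shares 86.3% with Atf5, Nup62 and Tbc1d17.

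Il6, the acute phase cytokine, stood near background, with 578 counts over the 12 lungs and a share of 73.2%. It held 2.64, 2.48 and 4.11 CPM in the room air females and 3.85, 4.64 and 4.90 in the hyperoxia females. In males it held 5.31, 4.35 and 4.58 CPM in room air and 2.88, 3.81 and 4.06 in hyperoxia. The background expected for a gene of its length was 1.76 to 3.84 CPM across lungs, and the 3 lungs with least Il6, room air females 5 and 2 and hyperoxia male 1, were also the 3 with the lowest background density. Il17a, the T helper 17 cytokine, held 1.12 to 3.69 CPM (share 70.6%), Il5, the eosinophil growth factor, 2.36 to 5.66 CPM (54.6%), and Il2, the T cell growth factor, 0.813 to 2.49 CPM (95.4%).

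**Figure D2:**
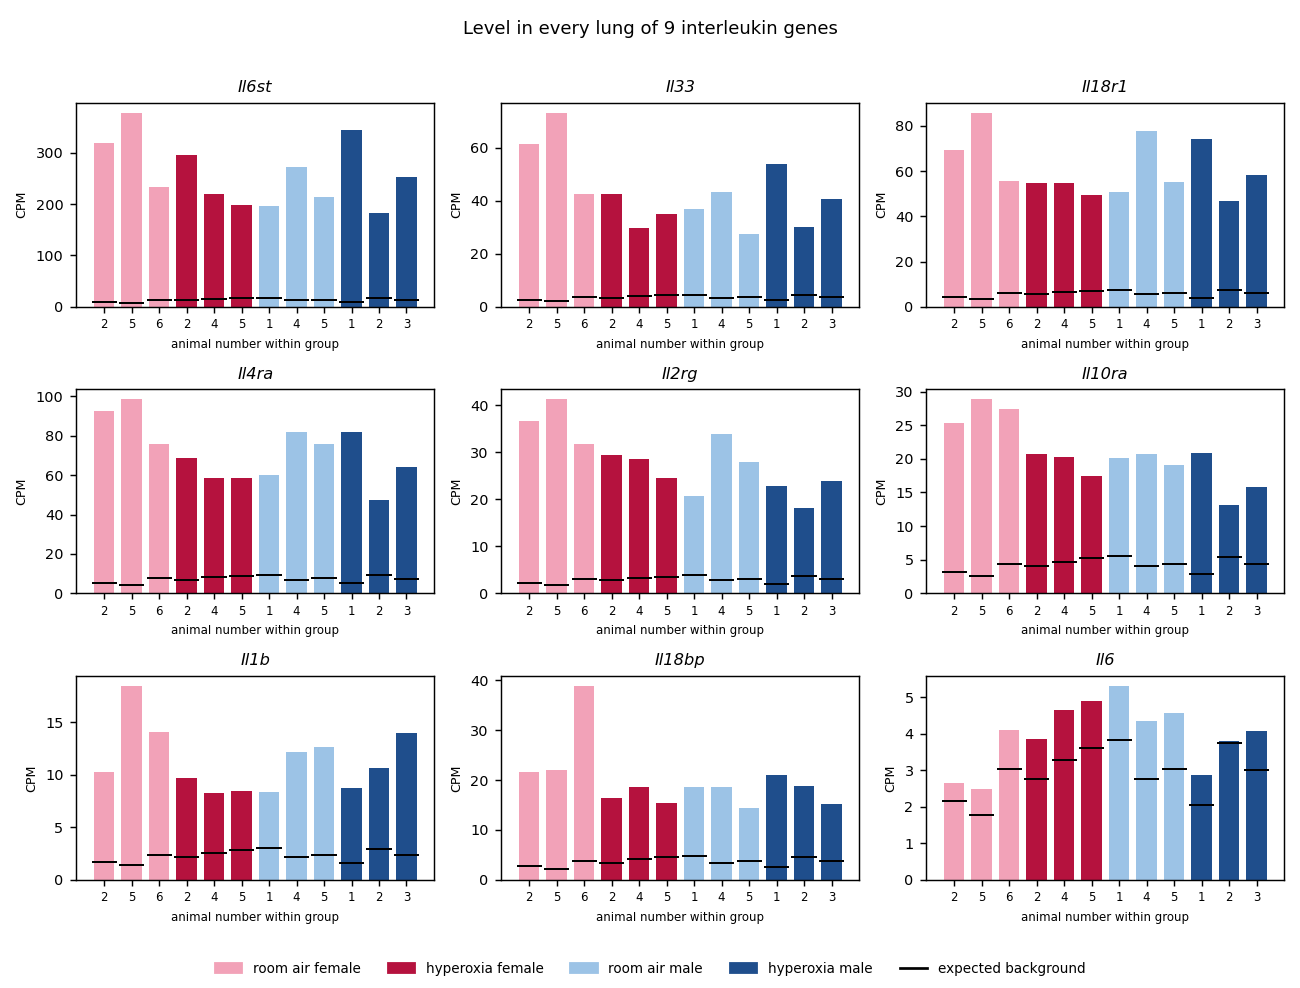
Level of 9 interleukin genes in each of the 12 lungs in CPM, as bars from 0, with a black line at the CPM expected from the receptor gene density for the same gene and lung. The other 8 genes stand well above their lines in every lung, whereas the bars of Il6, at 2.48 to 5.31 CPM, stay close to expected values of 1.76 to 3.84 CPM.

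The question of the design was how neonatal hyperoxia, measured on day 21, changed the lung in each sex. Over all 12 lungs, with each sex weighted equally, no member was called by edgeR's quasi-likelihood test (Benjamini-Hochberg adjusted p under 0.05 over all genes and a fold change above 1.5), where 0.0415% of the 45828 genes tested were. DESeq2 called 0 as well. At an unadjusted p under 0.05 the edgeR test had 9 of the 81 tested members, 1 higher and 8 lower in hyperoxia, against 5.2% of all genes, and DESeq2 had 8. No member had exposure groups that did not overlap, which held for 0.216% of all genes. The median log2 fold change was -0.000966 over the members and 0.03 over all genes. With 1 factor of unwanted variation estimated from the residuals (RUVr, a step of the study's own methods), 0 members were called again, but 6 had an adjusted p under 0.05 at smaller folds, Il10ra, Il17ra, Il18r1, Il2rg, Il33 and Il4ra, all lower, against 4.51% of all genes. With the share of each lung's counts on the receptor genes as a covariate in place of that factor, 0 members had. In whole lung, fewer cells of a type and less RNA per cell cannot be told apart.

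The 8 members with lower values at an unadjusted p under 0.05 were 5 receptor chains and 3 genes of the IL-1 family. Il10ra, the IL-10 binding chain of leukocytes, had the smallest p. It held 25.3, 28.9 and 27.4 CPM in the room air females against 20.6, 20.3 and 17.4 in the hyperoxia females, and 20.2, 20.8 and 19.03 against 20.9, 13.1 and 15.9 in the males. The females did not overlap and the males did. The log2 difference over both sexes was -0.37 ± 0.11 (SE), with an adjusted p of 0.678 in the edgeR test, and -0.38 ± 0.08 (adjusted p = 0.000781) with the RUVr factor.

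Il2rg, whose product serves the receptors for IL-2, IL-4, IL-7, IL-9, IL-15 and IL-21, held 36.7, 41.3 and 31.7 CPM in room air females and 29.3, 28.5 and 24.4 in hyperoxia females. In males it held 20.7, 33.8 and 27.9 CPM in room air and 22.9, 18.2 and 23.9 in hyperoxia, with overlap. Its log2 difference was -0.38 ± 0.12, with an adjusted p of 0.793, and -0.37 ± 0.07 (adjusted p = 0.000301) with the RUVr factor. The same direction was measured for Il17ra, the chain shared by receptors of the IL-17 family, at -0.32 ± 0.12, for Il4ra at -0.35 ± 0.14 and for Il13ra1 at -0.31 ± 0.14, each with an adjusted p of 0.927. Without room air female 5 the value of Il13ra1 was -0.18 over all lungs and -0.19 in females.

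Il18, Il18bp and Il1b made up the rest. Il1b had a log2 difference of -0.34 ± 0.15, Il18bp, the secreted inhibitor of IL-18, -0.31 ± 0.13, and Il18 itself -0.31 ± 0.14, with adjusted p-values of 0.927. The value of Il18bp was -0.14 ± 0.11 without room air female 6, and that of Il1b -0.22 ± 0.14 without room air female 5. Il18 held, in males, 13.0, 9.83 and 8.99 CPM in room air and 7.68, 7.08 and 7.83 in hyperoxia. The male groups did not overlap (log2 difference -0.49 ± 0.19, adjusted p = 1.00 in the edgeR test, and -0.31 without room air male 1), whereas the female groups, at 7.38, 9.86 and 8.45 CPM against 9.18, 8.19 and 6.27, did.

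The only member higher at an unadjusted p under 0.05 was Il20, an epithelium-directed cytokine of the IL-10 family with a background share of 35.0%. It held 2.57, 2.99 and 3.56 CPM in room air females and 4.90, 3.45 and 4.81 in hyperoxia females, and in males 3.49, 3.83 and 4.10 against 3.99, 4.90 and 5.69. Its log2 difference was 0.44 ± 0.18 (adjusted p = 0.927). The next by p were Il13 with 0.32 ± 0.16, Il12a, the p35 chain of IL-12, with 0.26 ± 0.13, Il1f8, which encodes IL-36 beta, with 0.40 ± 0.24 and Il1f5 with 0.21 ± 0.17, the last pair near background.

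Other members with known roles had an unadjusted p above 0.05 over all lungs, namely Il6st at -0.10 ± 0.19, Il10rb at -0.11 ± 0.13, Il33 at -0.25 ± 0.15, Il18r1 at -0.22 ± 0.15, Il1r1, the signalling IL-1 receptor, at -0.11 ± 0.13, the decoy receptor Il1r2 at 0.07 ± 0.19 and the receptor antagonist Il1rn at 0.00 ± 0.12. The receptor for IL-33, Il1rl1, stood at 0.02 ± 0.10, Il7r, the receptor of lymphocyte survival, at 0.10 ± 0.12, Il34 at -0.08 ± 0.12, Il16, a ligand of CD4, at -0.01 ± 0.11 and Il10 at 0.15 ± 0.15. Among the near-background members Il6 stood at 0.07 ± 0.18, Il5 at -0.12 ± 0.21, Il17a at 0.18 ± 0.27 and Il22ra2 at 0.04 ± 0.17. Il4 stood at 0.08 ± 0.16 and Il3ra at -0.01 ± 0.11.

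The counts at an unadjusted p under 0.05 within families stand beside 5.2% of all genes. In the IL-1 family 0 of 20 members were higher and 3 lower, in the group of the common gamma chain and type 2 cytokines 0 of 17 higher and 3 lower, in the IL-10 family 1 of 11 higher and 1 lower, in the IL-17 family 0 of 11 higher and 1 lower, and in the IL-6 and IL-12 families 0 of the 15 tested in either direction. The 4 members of the common beta chain group had 0 in either direction as well.

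In females 0 of 81 members were called by edgeR, against 0.00218% of all genes, and DESeq2 called 0. At an unadjusted p under 0.05 there were 15, of which 6 were higher and 9 lower, against 12.6% of all genes, and DESeq2 had 12. The exposure groups did not overlap for 20 members, against 17.2% of all genes. Over all genes the female log2 changes had a median of 0.11, with 60.8% of genes higher, so changes in females are to be read against that shift. With the RUVr factor 3 members were called, Il33 lower and Il13ra2 and Il1f8 higher, against 4.15% of all genes, and 0 were when the receptor share was the covariate instead. When only the 6 female lungs were fitted, Il18bp and Il33 were called, against 0.356% of all genes, and without room air female 6 Il33 alone was, against 0.44%.

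The smallest p-values in females were those of Il18bp, Il33 and Il1b. Il33 held 61.6, 73.2 and 42.5 CPM in room air females and 42.7, 29.6 and 34.8 in hyperoxia females, a log2 difference of -0.73 ± 0.21 with an adjusted p of 0.311 in the edgeR test. It was -0.70 ± 0.10 (adjusted p = 2.41e-06) with the RUVr factor, but -0.25 ± 0.13 (adjusted p = 0.910) with the receptor share of each lung as a covariate. Only room air female 6 reached down into the hyperoxia range. In males Il33 held 36.7, 43.2 and 27.3 CPM in room air and 53.7, 30.2 and 40.8 in hyperoxia, which overlapped (0.22 ± 0.22).

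Il18bp held 21.7, 22.01 and 38.95 CPM in room air females and 16.4, 18.6 and 15.5 in hyperoxia females, so that the groups did not overlap and room air female 6 stood far above the rest. The log2 difference was -0.71 ± 0.19 (adjusted p = 0.248 in the edgeR test), and without room air female 6 it was -0.38. Il1b held 10.3, 18.5 and 14.1 CPM against 9.71, 8.28 and 8.51, also without overlap, for a difference of -0.69 ± 0.21 (adjusted p = 0.317), and -0.46 without room air female 5. In males the differences were 0.09 ± 0.19 for Il18bp and 0.01 ± 0.21 for Il1b.

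Il10ra, Il17ra, Il4ra, Il2rg and Il13ra1 were also lower in females at an unadjusted p under 0.05, at -0.48 ± 0.15, -0.44 ± 0.17, -0.52 ± 0.20, -0.42 ± 0.17 and -0.46 ± 0.20, as was Il34 at -0.38 ± 0.17. The 6 with higher values were Il1f8 (0.78 ± 0.35), Il13ra2 (0.72 ± 0.31), Il21 (0.55 ± 0.24), Il6 (0.55 ± 0.26), Il20 (0.54 ± 0.25) and Il18rap, the accessory chain for IL-18 (0.36 ± 0.16). Of these, Il1f8, Il13ra2, Il21 and Il6 were near background.

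The background is given beside these values. The receptor gene density was 0.891, 0.725 and 1.25 CPM per kb in the room air females and 1.14, 1.35 and 1.49 in the hyperoxia females, whereas room air males held 1.58, 1.14 and 1.25 and hyperoxia males 0.837, 1.54 and 1.23. The female groups overlapped through room air female 6, and a difference in density was not tested. The 15 near-background members had a median log2 change of 0.36 in females, with 4 higher and 0 lower at an unadjusted p under 0.05, which 12.6% of all genes had in either direction, and of -0.05 in males. The 66 members above background had a median of 0.01 in females, with 2 higher and 9 lower. The 3 lungs of lowest density, room air female 5, hyperoxia male 1 and room air female 2, were also the 3 with most Il6st, at 378, 345 and 318 CPM. With the expected background subtracted from the counts, the female difference of Il33 was -0.60 ± 0.21 (adjusted p = 0.706 in the edgeR test).

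**Figure D3:**
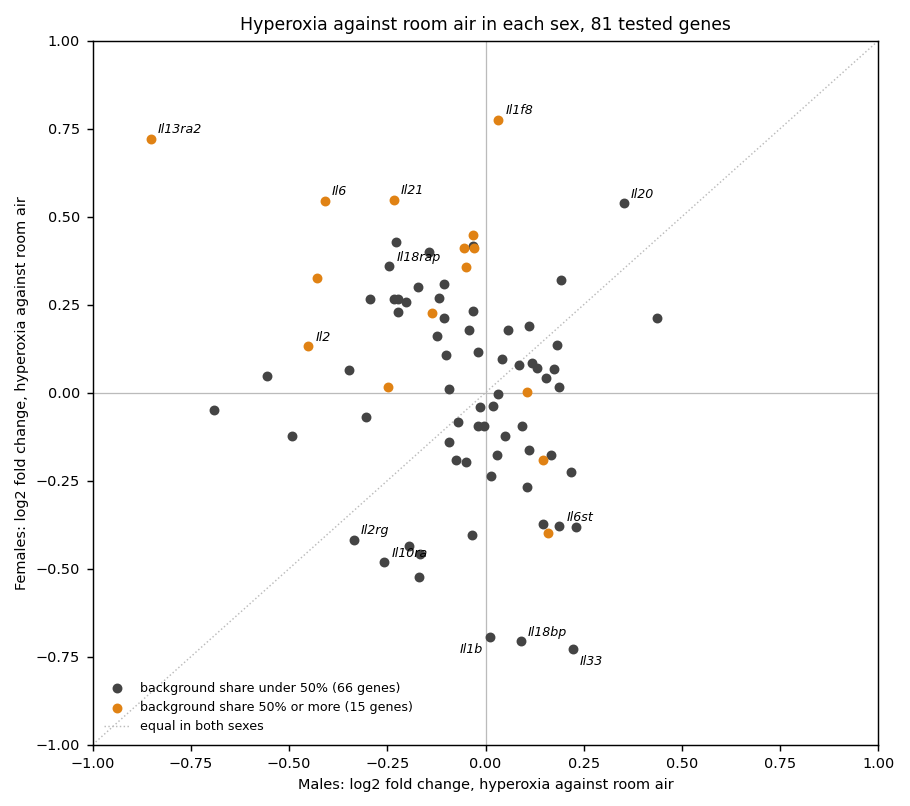
Log2 fold change of hyperoxia against room air for the 81 tested members, males on the horizontal and females on the vertical axis, with orange for a background share of 50% or more. Il33, Il18bp and Il1b lie at the bottom, at 0.22, 0.09 and 0.01 in males, and most orange points lie above 0 in females.

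In males 0 of 81 members were called by edgeR, where 0% of all genes were, and DESeq2 called 0. At an unadjusted p under 0.05 there were 2 members, both lower, against 2.7% of all genes, and DESeq2 also had 2. They were Il18, given above, and Il13ra2, the decoy receptor for IL-13, at -0.85 ± 0.38, which was -0.54 without hyperoxia male 1 and -1.29 without hyperoxia male 2. The exposure groups did not overlap for 5 members, Il13, Il17d, Il18, Il1rapl2 and Il6, against 6.62% of all genes. Il13, the cytokine of mucus and airway hyperreactivity, held 3.57, 5.04 and 3.77 CPM in room air males and 5.32, 5.77 and 5.69 in hyperoxia males (0.44 ± 0.23, adjusted p = 1.00).

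Whether the sexes responded differently was tested as the interaction, female minus male effect. No member was called, where 0% of all genes were, and DESeq2 called 0. At an unadjusted p under 0.05 edgeR had 10 members, 6 with a higher and 4 with a lower female effect, against 8.46% of all genes, and DESeq2 had 7. The 4 with a lower female effect were Il33 at -0.95 ± 0.30, Il18bp at -0.80 ± 0.27, Il1b at -0.71 ± 0.29 and Il34 at -0.61 ± 0.25, and those with a higher one were Il13ra2 at 1.57 ± 0.49, Il6 at 0.95 ± 0.37, Il18rap at 0.61 ± 0.23, Il21 at 0.78 ± 0.34, Il1rapl2 at 0.76 ± 0.35 and Il2ra, the alpha chain of the IL-2 receptor, at 0.50 ± 0.21. Each had an adjusted p of 0.578 in the edgeR test. Il13ra2, Il6, Il21 and Il1rapl2 were near background. With the RUVr factor 6 members were called, Il13ra2, Il6, Il21 and Il18rap with a higher and Il33 and Il34 with a lower female effect, against 4.58% of all genes. The interaction of Il33 was then -0.89 ± 0.14, with an adjusted p of 7.11e-05. With the receptor share as a covariate 0 members were called, and the interaction of Il33 was -0.34 ± 0.18 (adjusted p = 1.00). Without room air female 6 that of Il18bp was -0.48 ± 0.22.

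The study also asked about sex itself. Females and males differed in 3 called members, Il1rapl1, Il1rapl2 and Il13ra2, all higher in females, against 1.22% of all genes. DESeq2 called the same 3, against 1.73% of all genes. At an unadjusted p under 0.05 there were 9 members, 7 higher and 2 lower in females, against 6.88%, and DESeq2 had 8. The sexes overlapped for every member, and did not for 1.2% of all genes. The 3 called genes are X-linked, and so are Il2rg and Il13ra1, which made up the rest of the 5 X-linked members and were also higher in females at an unadjusted p under 0.05. Of all X-linked genes tested 25.3% were called, and of autosomal genes 0.0228%.

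Il1rapl1 and Il1rapl2 encode proteins known from synapses. Il1rapl1 held 8.67, 6.04 and 12.01 CPM in room air females and 9.53, 12.4 and 12.1 in hyperoxia females, against 6.23, 4.61 and 4.90 in room air males and 3.54, 7.08 and 4.87 in hyperoxia males. Only room air female 5 lay within the male range. The log2 difference was 0.96 ± 0.17 (adjusted p = 0.00131 in the edgeR test), at a background share of 146%. With the expected background subtracted it was not called. Its level lay below that background in every male lung, in room air female 5 and in all hyperoxia females. No counts were left in those lungs, so that fit could not decide whether the difference holds. Il1rapl2 held 5.15, 4.13 and 8.93 CPM in room air females and 7.87, 8.28 and 6.53 in hyperoxia females, and 3.25 to 4.87 CPM in the males. Its log2 difference was 0.74 ± 0.18 (adjusted p = 0.0230), and the call was lost when any of 5 lungs was left out, namely room air female 6, hyperoxia females 2 and 4, room air male 5 or hyperoxia male 3, with adjusted p-values up to 0.0887. It was also lost with a minimum of 10 counts in every lung (adjusted p = 0.0809), a filter that removed Il13ra2 and left Il1rapl1 called.

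Il13ra2 held 2.51, 2.04 and 3.71 CPM in room air females and 5.07, 4.14 and 4.30 in hyperoxia females, and 2.74, 1.65 and 1.93 in room air males and 0.665, 1.96 and 1.03 in hyperoxia males. The sexes overlapped only through room air lungs. The difference was 1.16 ± 0.24 on the log2 scale, with an adjusted p of 0.00728 in the edgeR test and a background share of 104%.

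The olfactory and vomeronasal receptor genes were compared in the same way. The density of the 9 X-linked receptor genes, relative to the 1481 autosomal ones in the same lung, was 1.17 ± 0.0538 in females (SD, n = 6) and 0.584 ± 0.0505 in males (SD, n = 6), with ranges of 1.09 to 1.22 and 0.547 to 0.683. The ratio of the female to the male mean CPM was 1.95 for Il1rapl1, 1.67 for Il1rapl2 and 2.18 for Il13ra2. For the X-linked members above background the ratio was smaller, 1.30 for Il2rg (log2 0.37 ± 0.12, adjusted p = 0.173) and 1.28 for Il13ra1 (0.34 ± 0.14, adjusted p = 0.528, and 0.21 without room air female 5). The part of the background in these sex differences was not tested.

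**Figure D4:**
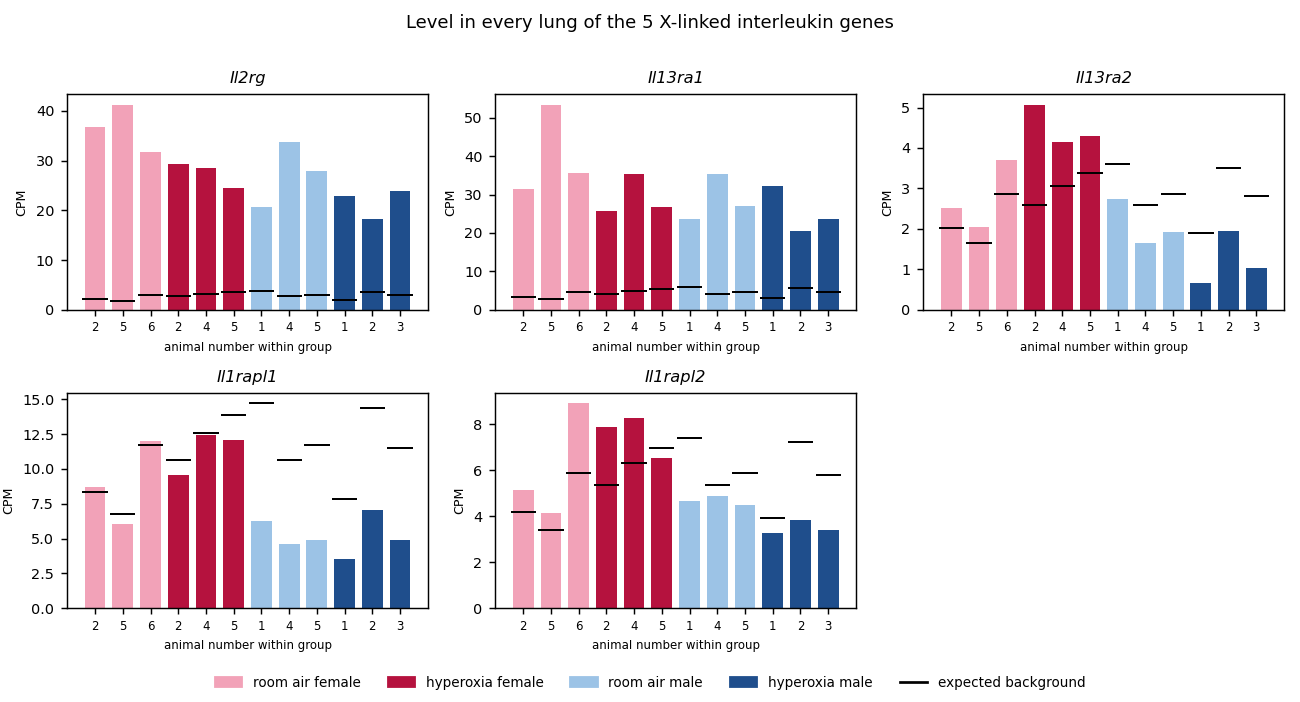
Level of the 5 X-linked members in each of the 12 lungs in CPM, as bars from 0, with a black line at the CPM expected from the receptor gene density. Il2rg and Il13ra1 stand far above their lines in both sexes, whereas all 3 of Il13ra2, Il1rapl1 and Il1rapl2 lie below their lines in all 6 males, and in females Il13ra2 lies above its line in all 6 lungs, Il1rapl2 in 5 of 6 and Il1rapl1 around its line.

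Of the autosomal members, Il10ra and Il18bp were higher in females at an unadjusted p under 0.05 (0.33 ± 0.11 and 0.28 ± 0.13) and Il1rn and Il23r, a chain of the IL-23 receptor, lower (-0.28 ± 0.12 and -0.39 ± 0.17). Their adjusted p-values were 0.206, 0.715, 0.536 and 0.566 in the edgeR test, and without room air female 6 the difference of Il18bp was 0.12 ± 0.11. Il1rn held 11.5, 11.9 and 13.0 CPM in room air females and 11.7, 15.2 and 15.7 in hyperoxia females, against 20.4, 15.2 and 16.1 in room air males and 12.2, 17.7 and 14.6 in hyperoxia males, so that the sexes separated in room air lungs and overlapped in hyperoxia lungs.

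Partner chains and signalling genes of these receptors that carry other names were examined in 5 groups, namely 15 partner cytokines and receptor chains, 4 JAK kinases, 7 inhibitors, 10 adaptors of the IL-1 and IL-17 receptors and 4 genes of IL-1 processing. None was called over all lungs, in females or in males. At an unadjusted p under 0.05, which 5.2%, 12.6% and 2.7% of all genes had in these comparisons, the counts were as follows. Over all lungs the partners, kinases and adaptors had 0 genes, whereas 1 inhibitor was lower, Ptpn6, a phosphatase that restrains JAK signalling (-0.25 ± 0.12), and 1 processing gene was, Casp1, the protease that matures IL-1 beta and IL-18 (-0.35 ± 0.15), each with an adjusted p of 0.927 in the edgeR test. In females 2 partners were lower, the GM-CSF receptor chains Csf2ra (-0.41 ± 0.16) and Csf2rb (-0.35 ± 0.17), as were the kinase Jak2 (-0.43 ± 0.19), the inhibitor Cish (-0.36 ± 0.17) and Gsdmd, the pore through which IL-1 beta leaves the cell (-0.35 ± 0.14), and none of these 5 groups had a higher gene. In males 1 was lower, the inflammasome sensor Nlrp3 (-0.35 ± 0.16). Of the STAT factors, Stat2, which serves interferon receptors, was at -0.42 ± 0.14 over all lungs and -0.76 ± 0.20 in females, and in females Stat3, the main STAT of gp130, was at -0.55 ± 0.21 and Stat4, which serves the IL-12 receptor, at 0.50 ± 0.23, each with an unadjusted p under 0.05 and none called. Without room air female 6 the female log2 change of Stat2 was -0.47 ± 0.19, and without room air female 5 that of Stat4 was 0.30 ± 0.23. Stat4 was near background, with a share of 54.3%. Stat5a, Stat5b and Stat6 had unadjusted p-values above 0.05 over all lungs and in each sex, and no count is given for the STAT factors as a group. The gp130 partner Lifr, with 20.6 CPM per kb, and the kinase Jak1, with 21.1, stood at a level per kb close to that of Il6st.

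Markers of the cells that carry interleukin receptors were read beside these results, with counts at an unadjusted p under 0.05, first over all lungs and then in females. The 7 T cell genes summed to 86.0 to 98.9 CPM in room air and 79.5 to 98.3 in hyperoxia (0 of 7 over all lungs, and 1 higher in females), the 5 neutrophil genes to 68.4 to 145 and 63.7 to 106 (0 of 5, and 2 lower), the 5 monocyte and interstitial macrophage genes to 70.7 to 101 and 60.7 to 81.9 (2 lower, and 1 lower), and the 5 alveolar macrophage genes to 129 to 371 and 185 to 348 (0 of 5 in both). The B cell genes Ms4a1, Cd79b and Cd79a were at -0.35 ± 0.13, -0.24 ± 0.11 and -0.14 ± 0.14 on the log2 scale over all lungs and at -0.56 ± 0.18, -0.50 ± 0.16 and -0.42 ± 0.19 in females, past that limit in each case except Cd79a over all lungs. The NK cell list (20.8 to 28.0 and 22.4 to 32.9 CPM) and the mast cell and basophil list (156 to 240 and 154 to 271) had 0 genes in both comparisons, and the list of type 2 innate lymphoid cells and eosinophils (43.5 to 52.2 and 48.2 to 55.4) had 1 higher over all lungs and 0 in females. Klrb1c of the NK cell list and Ms4a2 of the mast cell list were near background. The alveolar type 1 genes summed to 438 to 873 and 361 to 747 CPM (1 of 4 lower, and 3 lower in females), the endothelial genes to 984 to 1866 and 833 to 1623 (1 lower in both), the fibroblast genes to 1158 to 1927 and 742 to 1399 (2 lower, and 0) and the alveolar type 2 genes to 3664 to 8516 and 3316 to 6968 (0 in both). The median log2 change in females was -0.57 for the alveolar type 2, -0.50 for the endothelial, -0.47 for the alveolar type 1 and -0.35 for the fibroblast genes. No gene of these lists was called. The part of these cells in the lower values of Il10ra, Il2rg and Il4ra, and in those of Il33, Il18bp and Il1b in females, was not tested.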

How the data were processed

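Gene counts of 12 whole lungs were used as the authors deposited them, as whole numbers of reads per gene and lung. Per the labels and methods the reads were trimmed with Trim Galore, aligned to mm10 with STAR and counted with featureCounts. The strand setting is not given in the sources used here, and the library kit is named differently in the labels and the methods. ComBat-Seq, also in the methods, was not repeated, and RUVr was run as an alternative. Exon lengths came from GENCODE (GRCm38), matching 55227 of 55487 genes. Counts were scaled by upper quartile in edgeR 4.0.16 (R 4.3.3, limma 3.58.1), and 45828 genes passed filterByExpr. One robust quasi-likelihood fit over the 4 groups gave all contrasts. CPM is counts per 1000000 of effective library size. Calls needed both a fold change above 1.5 and an adjusted p (Benjamini-Hochberg, all genes tested) under 0.05. Alternatives were TMM, DESeq2 1.42.0, RUVr with 1 or 2 factors, other count filters, background corrections, a replicate block, fits of 1 sex, and each lung left out. Scripts were tested on simulated data. With 6 lungs against 6, the simulation called 15 of 50 genes changed 1.5-fold and 41 of 50 changed 2-fold. Genes were named by level, by smallest p per direction, by call and by role; the members, lists and rules were chosen with earlier results of these data known. P-values measure the spread between these lungs, whose litters are not given. Those of RUVr do so only after its factors, taken from the residuals of the same lungs, removed part of that spread. Of the STAT and B cell lists only single genes are given, since some results are not reported here.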

Additional observations from a re-analysis of the deposited data

Results flagged for a closer look

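In each exposure group of 6 lungs, 74 groups over the 37 named genes were examined for a lung far from the others (gap over range above 0.625), which chance gives in about 1 of 20 groups, and 4 stood out. Room air female 6 held 38.95 CPM of Il18bp, against 22.01 in the next lung, and 8.927 CPM of Il1rapl2, against 5.146. Hyperoxia male 2 held 5.66 CPM of Il5, against 3.249, and room air male 5 held 3.694 CPM of Il17a, against 1.909.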

How the results depend on the processing

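No member was called over all lungs or in males under any alternative run. The shares over all genes stand in brackets. In females, against 0 called (0.00218%), RUVr with 1 factor and with 2 factors called 3 each (4.15% and 4.21%). The replicate block called 1 (0.888%), the 6 female lungs alone 2 (0.356%), and leaving out 1 lung 0 to 1 (0.44% without room air female 6). For the interaction, against 0 (0%), RUVr with 1 factor called 6 (4.58%) and with 2 factors 5 (4.79%). Between the sexes, against 3 (1.22%), a minimum of 10 counts in every lung called 1 (0.7409%) and subtracting the background 2 (1.0955%). Leaving out 1 lung called 2 to 3, for which no share over all genes is given. Near background were 53 members at a share of 25% or more and 6 at 75% or more, against 15. Deviations from group means correlated at -0.491, 0.189 and -0.330 for the 3 shared animal numbers, over 21397 genes. Lungs of the same sex with unlike numbers gave -0.608 to 0.606. Whether equal numbers pair lungs could therefore not be decided. Of the 37 named genes, 16 kept their sign over all lungs in every alternative and 21 did not, none of the 21 having an unadjusted p under 0.05. The log2 difference over all lungs turned sign as follows, and the cause was not tested. With DESeq2, Il1rl1 was -0.027 and Il1rn -0.0409. With RUVr, Il1rn was -0.0039 with 1 factor, and Il3ra 0.0086 and Il1rn -0.002 with 2. With TMM, Il1rl1 was -0.0048 and Il1rn -0.0199. With no filter, Il1rl1 was -0.0012 and Il1rn -0.015. With a minimum of 10 counts, Il3ra was 0.0248 and Il16 0.021. With the background subtracted, Il3ra was 0.0419, Il16 0.0071, Il1rn -0.0608, Il22ra2 -0.073, Il6 -0.1651, Il1rapl2 0.0035, Il13ra2 0.755 and Il1rapl1 -2.2185. Counts of Il1rapl1 then remained only in room air females 2 and 6, so its value is not a measured fall. With the receptor share as covariate, Il6st was 0.0847, Il10rb 0.0288, Il34 0.0024, Il3ra 0.0086, Il1r1 0.0274, Il16 0.0425, Il1r2 -0.1012, Il23r -0.0176, Il1rn -0.1011, Il22ra2 -0.0256, Il6 -0.0571 and Il1rapl1 -0.05. With the replicate block, Il6st was 0.144, Il10rb 0.1474, Il34 0.0791, Il3ra 0.229, Il16 0.0819, Il7r -0.0152, Il4 -0.0745, Il1r2 -0.5238, Il18rap -0.2292, Il1rl1 -0.0492, Il23r -0.0295, Il1rn -0.2624, Il1f5 -0.1047, Il22ra2 -0.1453, Il17a -0.0604, Il6 -0.058, Il1rapl2 0.0595 and Il1rapl1 -0.1216. That block compares exposures only within animal numbers found in both, male 1 and females 2 and 5. The other lungs do not enter its exposure differences. Leaving out 1 lung gave Il6st -0.2232 to 0.0058, Il34 -0.1658 to 0.0211, Il3ra -0.0819 to 0.046, Il16 -0.0705 to 0.0274, Il1r2 -0.0996 to 0.2108, Il18rap -0.0106 to 0.1328, Il1rl1 -0.0262 to 0.0616, Il1rn -0.0629 to 0.0733, Il5 -0.2835 to 0.0058, Il22ra2 -0.0133 to 0.1096, Il1rapl2 -0.157 to 0.1351 and Il13ra2 -0.2853 to 0.0916. Genes with few counts, such as Il2 with 209 over all lungs, limit what could be detected.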
